A study of Homo sapiens with 12 samples.

Results

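Kinesins and centromere proteins (CENPs) are the motors and the chromosomal docking sites of the microtubule system, and their mRNAs were followed here in the lung squamous cell carcinoma line NCI-H520. The members were the protein-coding genes with a symbol made of KIF, digits and at most 1 letter from A to C, or of CENP and 1 letter, which gave 60 genes of 58302 in the count table (39 kinesins and 21 CENPs). The cells carried a lentivirus for overexpression of *L1-FGGY*, a transcript that joins a LINE-1 element to FGGY sequence (OV-L1-FGGY), or the empty vector (OV-CTRL). The 4 groups of 3 libraries were OV-L1-FGGY cells with DMSO, OV-L1-FGGY cells with 10 µM ML355 (an inhibitor of 12-lipoxygenase), libraries labelled as OV-L1-FGGY cells with 450 µM NVR (an anti-HIV drug used against L1), and OV-CTRL cells with DMSO. DMSO was at 0.2% in all 4 groups, the agents were given with a medium change 5 h after seeding, and the length of treatment was not given in the sources used here. Each construct was held in 1 line, and whether a line was a clone was not given in the sources used here.

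The libraries held 16242082 to 27004768 counts. FGGY, the gene within the overexpressed transcript, lay at 267 to 362 CPM (counts scaled to library size, with TMM factors) in the 6 DMSO and ML355 libraries of OV-L1-FGGY cells, at 3.81 to 4.83 CPM in the libraries labelled NVR, and at 2.99 to 3.83 CPM in OV-CTRL cells. The level in the NVR libraries therefore went against their label, and the called members are given against both DMSO groups. The 7 squamous markers looked at (SOX2, TP63, KRT5, KRT6A, KRT14, DSG3 and PKP1) summed to 0.86 to 1.53 CPM in OV-L1-FGGY DMSO, 1.7 to 3.47 in ML355, 9 to 17.2 in the NVR libraries and 17.2 to 21.3 in OV-CTRL, with KRT6A and DSG3 at 0 in all 12 and SOX2 at 0 in the 6 FGGY-high libraries. KRT5 and KRT14, the keratins that define the labelled tumour type, had group means of at most 0.0526 and 2.49 CPM. KRT14 went against the sum, with means of 0.386 CPM in OV-L1-FGGY DMSO and 2.49 in ML355. It was at 0 in the NVR libraries and OV-CTRL. SOX2 made up most of the sum in the NVR libraries (10.9 CPM) and OV-CTRL (16 CPM). The fibroblast markers (COL1A1, COL1A2, PDGFRB and DCN) summed to 106 to 123 CPM in OV-L1-FGGY DMSO, 46.4 to 58.4 in ML355, 19.6 to 22.1 in the NVR libraries and 19.8 to 25.2 in OV-CTRL. COL1A1 and DCN made up nearly all of the sum in OV-L1-FGGY DMSO (means of 55.6 and 60.9 CPM). COL1A2 was at 0 and PDGFRB at 0.729 CPM there. DCN was at 0 in the NVR libraries and OV-CTRL, where COL1A1 had means of 20.7 and 22.9 CPM. The endothelial markers (PECAM1, CDH5 and VWF) summed to 8.89 to 9.41 CPM in OV-L1-FGGY DMSO, 0.257 to 0.69 in ML355, 0.384 to 0.6 in the NVR libraries and 0.384 to 0.626 in OV-CTRL. The adenocarcinoma markers (NKX2-1, NAPSA and SFTPB) summed to 0.345 to 0.789 CPM in the 6 FGGY-high libraries, 7.37 to 10.5 in the NVR libraries and 4.46 to 5.34 in OV-CTRL, and the immune markers (PTPRC, CD3E, CD14 and LYZ) to 1.61 to 2.84 in OV-L1-FGGY DMSO, 2.66 to 3.76 in ML355, 9.18 to 12.7 in the NVR libraries and 3.22 to 4.54 in OV-CTRL. Within the immune set, PTPRC and CD14 went opposite ways. PTPRC had means of 1.16 CPM in OV-L1-FGGY DMSO, 2.78 in ML355, and 0 in the NVR libraries and OV-CTRL. CD14 had means of 1.05, 0.311, 11.1 and 4 CPM in the same order of groups. NAPSA made up most of the adenocarcinoma sum in the NVR libraries (7.84 CPM) and OV-CTRL (3.8 CPM). The part of these cell type markers in the results was not tested. Nothing in the labels says that the 3 libraries of a group came from separate cultures, so the p-values measure only the spread between libraries, which may be technical.

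Kinesins are motor proteins that use ATP to walk along microtubules or to take their ends apart. Mitotic kinesins build the spindle, move chromosomes and close the cell at cytokinesis, and their genes are switched on as cells approach division, whereas transport kinesins carry vesicles, organelles and mRNAs in resting and dividing cells alike. CENPs form the centromere: the histone variant CENP-A marks the site, a constitutive network of CENPs sits on it through the cell cycle, and CENP-E and CENP-F join the outer face in mitosis to meet the microtubules. Many genes of this set are repressed in resting cells and activated in G2 through a promoter element called the CHR (cell cycle genes homology region), which the DREAM and MYBL2-MuvB complexes bind, often beside CCAAT boxes for the factor NF-Y.

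By role, 13 members were grouped as mitotic kinesins, 13 as transport kinesins, 13 as ciliary and other kinesins, 2 as the foundation of the centromere (CENPA and CENPB), 15 as the constitutive centromere-associated network, 2 as outer kinetochore proteins (CENPE and CENPF) and 2 as CENPs that act mainly elsewhere (CENPJ and CENPV). Of these, 54 passed the filter on low counts and were tested. KIF2B, a spindle depolymerase, had no count in any library. KIF4B, an intronless copy nearly identical to KIF4A whose reads can go to either gene, had at most 4 counts, and KIF5A, KIF6, KIF19 and KIF26B also stayed below the filter.

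The CHR was looked for in RefSeq promoter windows (GRCh38.p14, 250 bases before to 50 after the start) as TTTGAA or TTCGAA on either strand, where the latter is its own reverse complement, and the CCAAT box as CCAAT on either strand. A window was at hand for 50 members. A CHR match was present in 10 of 13 mitotic kinesins (76.9%), 1 of 11 transport kinesins (9.09%), 1 of 9 ciliary and other kinesins (11.1%) and 4 of 12 genes of the centromere-associated network (33.3%), against 16.4% of all 35116 promoters and 13.7% of 22199 protein-coding ones. Both motifs were present in 69.2% of the mitotic kinesins and 5.48% of protein-coding promoters. The windows of the 9 mitotic kinesins with a match that were tested (all but KIF4B), CENPA and CENPF around the match are printed below as members that hold the motif and were lower in the NVR libraries than in OV-CTRL, with the CHR in capitals (TTCAAA is TTTGAA read on the other strand).
KIF11: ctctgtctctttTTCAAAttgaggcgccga
KIF14: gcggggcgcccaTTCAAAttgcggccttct
KIF15: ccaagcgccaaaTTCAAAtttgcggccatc
KIF18A: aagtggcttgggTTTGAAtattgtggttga
KIF18B: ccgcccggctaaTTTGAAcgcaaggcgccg
KIF20B: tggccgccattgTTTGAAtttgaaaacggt
KIF22: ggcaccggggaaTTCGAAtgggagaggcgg
KIF23: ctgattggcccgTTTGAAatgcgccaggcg
KIF4A: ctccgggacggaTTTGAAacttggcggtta
CENPA: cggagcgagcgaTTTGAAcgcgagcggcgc
CENPF: ccggtggcggctgcgggcagTTTGAAttag
In these 11 genes the first base of the printed match lay between positions -55 (KIF23) and 41 (CENPF) relative to the annotated start. The windows read 5′ to 3′ along the gene, on the plus strand at chr10:92593090-92593119 (KIF11), chr3:44761747-44761776 (KIF15), chr10:89701602-89701631 (KIF20B), chr16:29790712-29790741 (KIF22), chr15:69414282-69414311 (KIF23), chrX:70290058-70290087 (KIF4A), chr2:26786026-26786055 (CENPA) and chr1:214603215-214603244 (CENPF). On the minus strand were chr1:200620733-200620762 (KIF14), chr11:28108149-28108178 (KIF18A) and chr17:44947754-44947783 (KIF18B). KIF20B held a further copy that began 6 bases on, in lower case in the line above. The same letters were not in the windows of KIF2C, KIF20A and KIF2B, which says nothing of the factors that bind there.

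**Figure D1:**
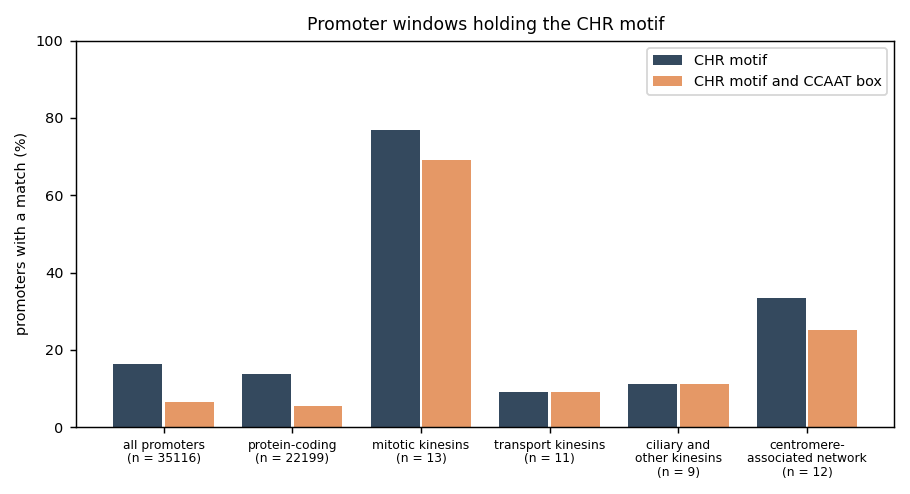
Bars give the share of promoter windows (%, vertical axis from 0 to 100) with a CHR match (dark) or with both a CHR match and a CCAAT box (orange), for all promoters, protein-coding promoters and 4 groups of members, with the number of windows under each. Mitotic kinesins stand at 76.9% and 69.2%, while transport kinesins stand at 9.09% for both.

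In the libraries labelled NVR, the mitotic kinesins stood below both DMSO groups, with KIF18B the exception against OV-L1-FGGY DMSO. Against OV-CTRL DMSO, all 11 that were tested were lower at an adjusted p under 0.01 (edgeR quasi-likelihood test, with the standard error after ± for every log2 fold change), from log2 fold change -0.68 (KIF2C) to -1.68 (KIF14), with a median of -1.39 beside 0.00 over all 17849 genes tested. The share of all tested genes called lower in this comparison was 15.3%, and 14.5% were called higher. Over all members, 32 were lower and 2 higher, with a median of -0.72. Against OV-L1-FGGY DMSO, 10 mitotic kinesins were lower and KIF18B was not called. With each of 12 libraries left out in turn and under 8 other settings of the fit, the counts of 11 and 10 did not move. In bulk RNA, fewer dividing cells and less of these mRNAs per dividing cell cannot be told apart.

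With ML355, the members as a whole moved in both directions. Against OV-L1-FGGY DMSO, 10 of 54 were lower and 9 higher, where 23.5% of all genes tested were called lower and 21.3% higher. The median log2 fold change was 0.03 over the members and -0.00 over all genes. By role, 4 mitotic kinesins were higher and 1 lower, 4 transport kinesins were lower and none higher, and 3 CENPs were higher and 4 lower. The transport kinesins had a median of -0.26 with 12 members and -0.41 once KIF1A and KIF5C, at or near 0 in both groups, were left out.

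Between the untreated lines, more members were called. In OV-L1-FGGY DMSO against OV-CTRL DMSO, 22 members were lower and 22 higher, where 36.2% of all genes were lower and 32.5% higher, and the median over members was 0.10 beside -0.11 over all genes. Mitotic kinesins were higher more often than lower (5 and 2 of 11), and transport kinesins lower more often than higher (7 and 3 of 12). The NVR libraries against OV-L1-FGGY DMSO gave 32 members lower and 16 higher, against 35.4% and 38.2% of all genes, with medians of -0.83 for the members and 0.08 for all genes. In that comparison 10 mitotic kinesins were lower and none higher, while 4 transport kinesins were lower and 7 higher. Both comparisons share the OV-L1-FGGY DMSO libraries.

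**Figure D2:**
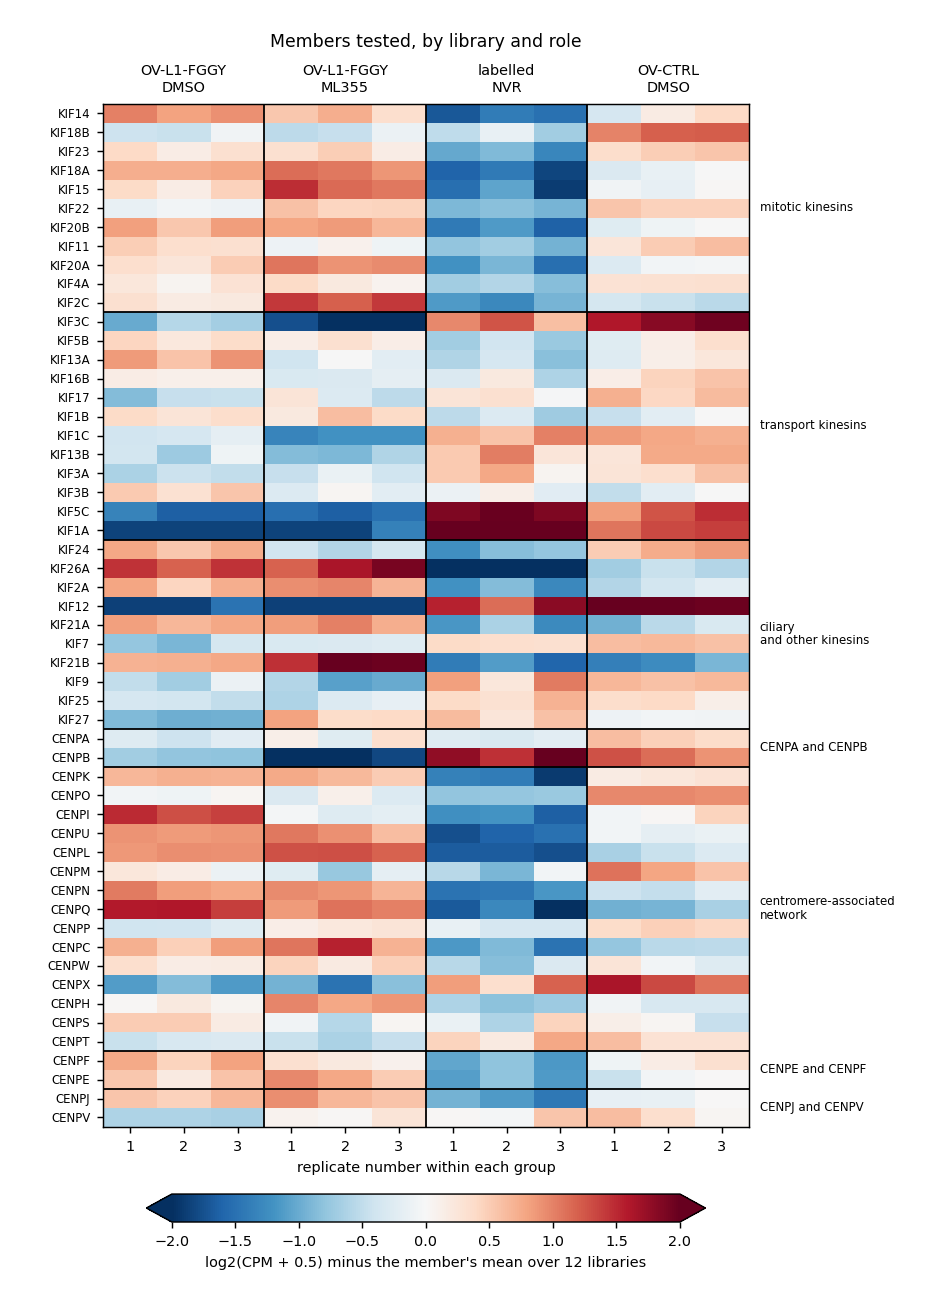
Each row is 1 of 54 tested members, ordered by role and then by the change in the NVR libraries against OV-CTRL, and each column 1 library, numbered within its group. Colours give log2(CPM + 0.5) minus the member's mean over the 12 libraries, and values past 2 or -2 take the end colours. The mitotic kinesins are below their means in the 3 NVR libraries, and KIF18B is highest in OV-CTRL.

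**Figure D3:**
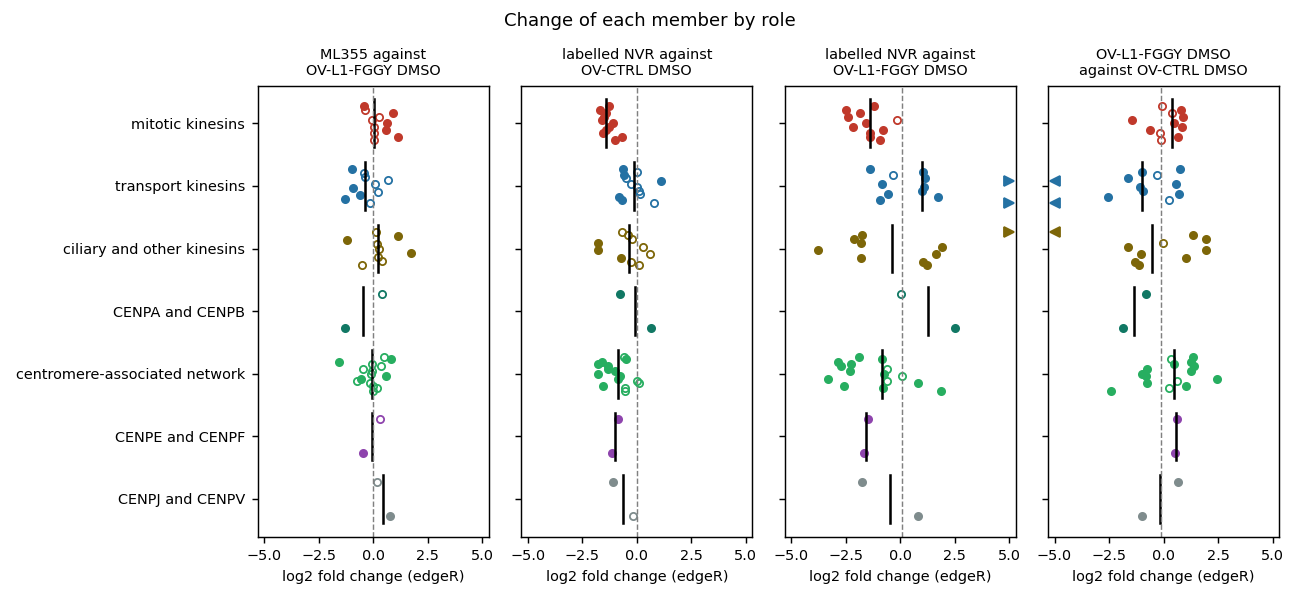
Points give the log2 fold change of each tested member (horizontal axis) in 4 comparisons, by role, filled where the adjusted p was under 0.01. Black bars are medians, arrowheads included, dashed lines the median of all genes, and arrowheads stand for KIF1A, KIF5C and KIF12, at or under 3 counts in OV-L1-FGGY DMSO and left out of the ML355 panel. All 11 mitotic kinesins lie to the left in the comparison of the NVR libraries with OV-CTRL.

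Summed over the mitotic kinesins, the level was 797, 726 and 804 CPM in OV-L1-FGGY DMSO and 741, 796 and 819 in OV-CTRL DMSO, so that the untreated groups overlapped. It was 1036, 978 and 962 CPM with ML355, above every DMSO library, and 316, 351 and 291 CPM in the NVR libraries, below all others. The higher sum with ML355 was not a rise of the whole class. The median log2 fold change of the 11 tested was 0.04, with 4 called higher, 1 lower and 6 not called. KIF2C alone had means of 106 CPM in OV-L1-FGGY DMSO and 231 with ML355. The transport kinesins summed to 590 to 666 CPM in OV-L1-FGGY DMSO, 424 to 499 with ML355, 678 to 725 in the NVR libraries and 757 to 875 in OV-CTRL.

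Among the mitotic kinesins, KIF11 (kinesin-5, which pushes the spindle poles apart) had 83.9, 75.1 and 74.6 CPM in OV-L1-FGGY DMSO, 55.6, 63.2 and 56.3 with ML355, 34.4, 36.7 and 30.8 in the NVR libraries and 70.2, 84.9 and 92.1 in OV-CTRL. The NVR libraries lay below every other library, and the ML355 libraries below both DMSO groups. KIF11 was 2.42-fold lower in the NVR libraries than in OV-CTRL (log2 fold change -1.28 ± 0.12, adjusted p = 8.28e-07) and 2.29-fold lower than in OV-L1-FGGY DMSO (log2 fold change -1.20 ± 0.12, adjusted p = 1.33e-07). With ML355 it was lower by a log2 fold change of -0.42 ± 0.12 (SE; adjusted p = 0.00723), a call that was lost in 8 of 20 other settings, 7 of them with 1 library left out. KIF15, a kinesin-12 that helps to hold the spindle bipolar beside KIF11, stood at 23.9, 20.3 and 25.3 CPM in OV-L1-FGGY DMSO, 51.6, 40.7 and 38.5 with ML355, 6.1, 8.52 and 4.5 in the NVR libraries and 17.3, 16.3 and 18.6 in OV-CTRL. It went the other way with ML355 (log2 fold change 0.91 ± 0.18, adjusted p = 0.000354) and was lower in the NVR libraries than in OV-CTRL (log2 fold change -1.43 ± 0.19, adjusted p = 2.38e-05), without overlap in either comparison.

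KIF2C (MCAK, a kinesin-13 that takes microtubule ends apart at centromeres and corrects faulty attachments) was the mitotic kinesin with the smallest adjusted p under ML355. Its levels were 113, 102 and 104 CPM in OV-L1-FGGY DMSO, 242, 208 and 243 with ML355, 40.9, 36.7 and 47.2 in the NVR libraries and 70.8, 66.8 and 62 in OV-CTRL. None of the 4 groups overlapped another. KIF2C was 2.17-fold higher with ML355 (log2 fold change 1.12 ± 0.11, adjusted p = 5.8e-07), 1.6-fold lower in the NVR libraries than in OV-CTRL (log2 fold change -0.68 ± 0.11, adjusted p = 0.00022) and 1.6-fold higher in OV-L1-FGGY DMSO than in OV-CTRL (log2 fold change 0.68 ± 0.11, adjusted p = 4.63e-05).

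The chromokinesins KIF22 and KIF4A, bind chromosome arms. KIF22 had 79, 83.9 and 81.8 CPM in OV-L1-FGGY DMSO, 132, 118 and 119 with ML355, 46.7, 48.8 and 45.6 in the NVR libraries and 129, 121 and 120 in OV-CTRL. It was higher with ML355 (log2 fold change 0.59 ± 0.09, adjusted p = 6.51e-05), at levels that overlapped those of OV-CTRL, and had the smallest adjusted p of the mitotic kinesins in the NVR libraries against OV-CTRL (log2 fold change -1.39 ± 0.10, adjusted p = 3.55e-08). KIF4A ranged over 71.2 to 84.4 CPM in OV-L1-FGGY DMSO and 72.7 to 90.2 with ML355, which overlapped, and over 38 to 45.5 in the NVR libraries and 84.2 to 86.5 in OV-CTRL, which did not (log2 fold change -1.02 ± 0.11, adjusted p = 4.06e-06).

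The 4 kinesins of cytokinesis were all lower in the NVR libraries than in either DMSO group. KIF23, which forms the centralspindlin complex with RACGAP1, had 115, 96 and 109 CPM in OV-L1-FGGY DMSO, 108, 122 and 96.3 with ML355, 42.2, 46.8 and 34.8 in the NVR libraries and 111, 122 and 127 in OV-CTRL. Its 3 groups outside the NVR libraries overlapped, and no difference between OV-L1-FGGY DMSO and either ML355 or OV-CTRL passed the test (adjusted p = 0.871 and 0.224). The NVR libraries were 2.9-fold below OV-CTRL (log2 fold change -1.54 ± 0.13, adjusted p = 2.61e-07) and 2.58-fold below OV-L1-FGGY DMSO (log2 fold change -1.37 ± 0.13, adjusted p = 5.67e-08). KIF20A, which carries the chromosomal passenger complex to the midzone, had 83.1, 77.5 and 93.6 CPM in OV-L1-FGGY DMSO, 139, 123 and 127 with ML355, 28, 34.7 and 22.9 in the NVR libraries and 54.4, 63 and 64 in OV-CTRL. All 4 groups stood apart, with ML355 highest (log2 fold change 0.61 ± 0.14, adjusted p = 0.00114) and the NVR libraries lowest (log2 fold change -1.08 ± 0.14, adjusted p = 1.85e-05 against OV-CTRL). KIF20B, another kinesin-6, had 56.2, 46.1 and 56.6 CPM in OV-L1-FGGY DMSO, 55.3, 57.7 and 50.3 with ML355, 11.6, 14.2 and 9.93 in the NVR libraries and 26.6, 29.6 and 31.5 in OV-CTRL. It overlapped between OV-L1-FGGY DMSO and ML355, was higher in OV-L1-FGGY DMSO than in OV-CTRL (log2 fold change 0.86 ± 0.13, adjusted p = 2.31e-05) and was lowest in the NVR libraries (log2 fold change -1.29 ± 0.14, adjusted p = 3.26e-06 against OV-CTRL). KIF14, a kinesin-3 that acts with citron kinase at the midbody, had 56.9, 49.1 and 53.1 CPM in OV-L1-FGGY DMSO, 40.9, 46.8 and 35.5 with ML355, 8.31, 10.3 and 9.66 in the NVR libraries and 22, 31.3 and 37.1 in OV-CTRL. It showed the largest drop of the mitotic kinesins against OV-CTRL, 3.2-fold (log2 fold change -1.68 ± 0.17, adjusted p = 2.04e-06), and 5.62-fold against OV-L1-FGGY DMSO (log2 fold change -2.49 ± 0.18, adjusted p = 1.61e-09).

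The kinesin-8 pair differed between the untreated lines. KIF18A, which shortens kinetochore microtubules and damps chromosome movement, had 59.8, 59.2 and 61.7 CPM in OV-L1-FGGY DMSO, 78.3, 75 and 66.7 with ML355, 11.5, 13.1 and 9.66 in the NVR libraries and 29.2, 32.1 and 35.5 in OV-CTRL. KIF18B, which acts on astral microtubules, had 46.5, 45.6 and 59.5 CPM in OV-L1-FGGY DMSO, 43.1, 45.3 and 57.2 with ML355, 43.6, 56.1 and 38.2 in the NVR libraries and 125, 143 and 145 in OV-CTRL. KIF18A was higher in OV-L1-FGGY DMSO than in OV-CTRL (log2 fold change 0.90 ± 0.12, adjusted p = 4.74e-06) and KIF18B lower (log2 fold change -1.45 ± 0.16, adjusted p = 3.2e-07). Both were lower in the NVR libraries than in OV-CTRL (log2 fold change -1.49 ± 0.13, adjusted p = 2.97e-07 for KIF18A, log2 fold change -1.58 ± 0.16, adjusted p = 1.23e-06 for KIF18B). KIF18B overlapped among OV-L1-FGGY DMSO, ML355 and the NVR libraries, all below OV-CTRL, and its difference between the NVR libraries and OV-L1-FGGY DMSO did not pass the test (log2 fold change -0.13 ± 0.15, adjusted p = 0.431).

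**Figure D4:**
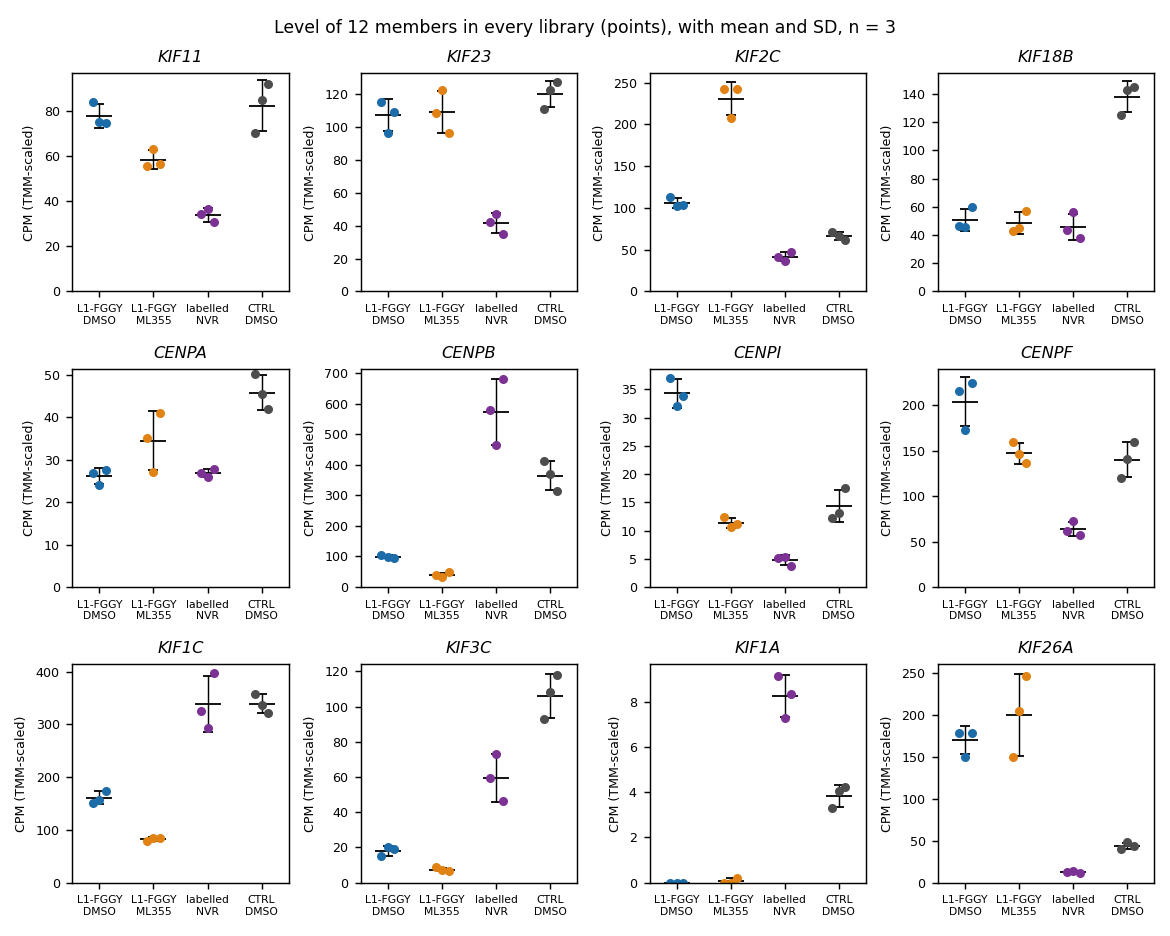
Points give the level (TMM-scaled CPM, vertical axes from 0) of 12 members in the 3 libraries of each group, with the mean (bar) and SD (whiskers). KIF11, KIF23 and CENPF are lowest in the NVR libraries, KIF2C is highest with ML355, and KIF1A is at 0 in all 3 OV-L1-FGGY DMSO libraries.

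Of the 12 transport kinesins tested, 4 were lower and 1 higher in the NVR libraries against OV-CTRL, with a median log2 fold change of -0.14. The count of lower ones was 2 without NVR replicate 1 or 3 or OV-CTRL replicate 2 or 3. The kinesin-1 heavy chains carry light chains and many cargoes. KIF5B, the widely expressed one, had 170, 145 and 162 CPM in OV-L1-FGGY DMSO, 138, 157 and 138 with ML355, 77.8, 96.1 and 74.9 in the NVR libraries and 106, 138 and 159 in OV-CTRL. The NVR libraries lay below all others (log2 fold change -0.70 ± 0.14, adjusted p = 0.00102 against OV-CTRL and log2 fold change -0.94 ± 0.14, adjusted p = 1.5e-05 against OV-L1-FGGY DMSO), and the remaining groups overlapped. KIF5C, a neuronal heavy chain, had 2, 0 and 0 counts in OV-L1-FGGY DMSO and 1, 0 and 1 with ML355, and 5.2, 5.63 and 5.16 CPM in the NVR libraries and 2.27, 3.21 and 3.84 in OV-CTRL. Set against a floor of 3 counts per library, it was at least 33.3-fold higher in the NVR libraries and at least 19.4-fold higher in OV-CTRL than in OV-L1-FGGY DMSO. KIF5A, the other neuronal heavy chain, was too low to be tested, at 0.259 to 0.5 CPM in the NVR libraries and 0.294 to 0.626 in OV-CTRL, with at most 0.0574 in the 6 OV-L1-FGGY libraries.

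The kinesin-3 motors of vesicles and endosomes moved in different ways. KIF1A, which carries synaptic vesicle precursors in neurons, had no count in the 3 OV-L1-FGGY DMSO libraries and 0, 0 and 4 counts with ML355, against 9.16, 7.29 and 8.34 CPM in the NVR libraries and 3.28, 4.03 and 4.22 in OV-CTRL. It was at least 51.6-fold higher in the NVR libraries and at least 24-fold higher in OV-CTRL than in OV-L1-FGGY DMSO. The 2 detected groups also stood apart (log2 fold change 1.10 ± 0.29, adjusted p = 0.00705), a call made in 12 of 19 other settings and lost without NVR replicate 1 or 3 or any 1 of the OV-CTRL libraries. KIF1C, a motor of dense-core vesicles, had 151, 157 and 174 CPM in OV-L1-FGGY DMSO, 78.6, 85.1 and 85.3 with ML355, 325, 294 and 398 in the NVR libraries and 358, 336 and 322 in OV-CTRL. It was lower with ML355 by 1.94-fold (log2 fold change -0.95 ± 0.12, adjusted p = 5.31e-06) and lower in OV-L1-FGGY DMSO than in OV-CTRL by 2.11-fold (log2 fold change -1.08 ± 0.12, adjusted p = 4.48e-07). Between the NVR libraries and OV-CTRL the levels overlapped, with a log2 fold change of -0.00 ± 0.12.

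KIF13A, which moves recycling endosomes, had 79.7, 65.6 and 82.3 CPM in OV-L1-FGGY DMSO, 33.1, 43.9 and 38 with ML355, 28.8, 34.8 and 24.4 in the NVR libraries and 36.6, 47.5 and 51.4 in OV-CTRL. The OV-L1-FGGY DMSO libraries were above all others, and the call was made in each comparison (log2 fold change -0.99 ± 0.16, adjusted p = 7e-05 with ML355, log2 fold change -0.62 ± 0.16, adjusted p = 0.00514 in the NVR libraries against OV-CTRL). The call against OV-CTRL was made in 15 of 20 other settings and lost without NVR replicate 1 or 3 or OV-CTRL replicate 2 or 3. KIF16B, a motor of early endosomes, was called lower in the NVR libraries against OV-CTRL (log2 fold change -0.60 ± 0.17, adjusted p = 0.00991) although its groups overlapped, and the call held in 5 of 20 other settings. KIF1B, a motor of mitochondria and vesicles, had means of 76.6 ± 3.21 CPM (SD, n = 3) in OV-L1-FGGY DMSO, 80.8 ± 11.8 with ML355, 43.2 ± 6.88 in the NVR libraries and 52.3 ± 8.47 in OV-CTRL, and differed between the untreated lines (log2 fold change 0.55 ± 0.14, adjusted p = 0.00259). KIF13B was higher in the NVR libraries (25.3 ± 7.19 CPM) and OV-CTRL (24.9 ± 4.96 CPM) than in OV-L1-FGGY DMSO (12.4 ± 2.82 CPM; log2 fold change -1.01 ± 0.21, adjusted p = 0.000425 for OV-L1-FGGY against OV-CTRL).

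The kinesin-2 subunits KIF3A, KIF3B and KIF3C, which form heterotrimers with KIFAP3 and also serve the cilium, moved in different directions. KIF3B, which pairs with KIF3A, had 97.3, 84 and 100 CPM in OV-L1-FGGY DMSO, 55.7, 69.8 and 58.4 with ML355, 62.7, 73.2 and 57.9 in the NVR libraries and 47.9, 58.4 and 67.2 in OV-CTRL. It was lower with ML355 (log2 fold change -0.61 ± 0.14, adjusted p = 0.00135) and overlapped between the NVR libraries and OV-CTRL. KIF3A had means of 12.4 ± 0.914 CPM in OV-L1-FGGY DMSO, 14.2 ± 1.82 with ML355, 25.1 ± 6.08 in the NVR libraries and 23.8 ± 2.94 in OV-CTRL, with log2 fold change -0.94 ± 0.17, adjusted p = 0.000104 between the untreated lines. KIF3C, a further subunit, had 14.9, 20.2 and 18.8 CPM in OV-L1-FGGY DMSO, 8.62, 7.06 and 6.52 with ML355, 59.3, 73.3 and 46.1 in the NVR libraries and 92.9, 108 and 118 in OV-CTRL. No group overlapped another. KIF3C was 5.9-fold lower in OV-L1-FGGY DMSO than in OV-CTRL (log2 fold change -2.56 ± 0.17, adjusted p = 1.33e-09), lower again with ML355 (log2 fold change -1.28 ± 0.18, adjusted p = 2.03e-05), and 1.78-fold lower in the NVR libraries than in OV-CTRL (log2 fold change -0.83 ± 0.16, adjusted p = 0.00074). KIF17, a kinesin-2 of dendrites and cilia, was near the detection limit at 0.516 to 2.52 CPM and lower in OV-L1-FGGY DMSO than in OV-CTRL (log2 fold change -1.61 ± 0.34, adjusted p = 0.000407).

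Of the 10 tested ciliary and other kinesins, 3 were lower in the NVR libraries than in OV-CTRL and none higher. KIF24, a centriolar depolymerase that holds back cilium growth, had 11.1, 9.41 and 10.9 CPM in OV-L1-FGGY DMSO, 4.68, 4.02 and 4.83 with ML355, 2.4, 3.26 and 3.46 in the NVR libraries and 9.17, 10.9 and 11.7 in OV-CTRL. It was lower with ML355 (log2 fold change -1.21 ± 0.18, adjusted p = 2.63e-05) and in the NVR libraries against both DMSO groups (log2 fold change -1.80 ± 0.18, adjusted p = 1.54e-06 against OV-CTRL), and the DMSO groups overlapped. KIF26A, a member whose motor domain lacks ATPase activity, had 179, 150 and 179 CPM in OV-L1-FGGY DMSO, 150, 205 and 247 with ML355, 12.6, 14.3 and 10.9 in the NVR libraries and 40.3, 47.9 and 43.6 in OV-CTRL. It showed the widest drop of a member above the floor in the NVR libraries against OV-L1-FGGY DMSO, 13.4-fold (log2 fold change -3.75 ± 0.18, adjusted p = 1.31e-11), and was 3.48-fold lower than in OV-CTRL (log2 fold change -1.80 ± 0.17, adjusted p = 7.02e-07). KIF2A, a kinesin-13 of spindle poles and neurons, had 77, 59.8 and 73.6 CPM in OV-L1-FGGY DMSO, 84.8, 87.4 and 71.7 with ML355, 18.9, 24.2 and 17.9 in the NVR libraries and 29.3, 34.4 and 38.1 in OV-CTRL (log2 fold change -0.74 ± 0.15, adjusted p = 0.000856 for the NVR libraries against OV-CTRL). DIMT1 on the other strand shares 18.7% of its exon bases, and whether counting used strand was not given.

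KIF27 and KIF7 are related motors, KIF7 a regulator of Hedgehog signalling at the tip of the cilium. KIF27 had 1.89, 1.74 and 1.76 CPM in OV-L1-FGGY DMSO, 7.19, 5.2 and 5.31 with ML355, 6.3, 4.7 and 6.09 in the NVR libraries and 3.62, 3.75 and 3.68 in OV-CTRL, and rose 3.28-fold with ML355 (log2 fold change 1.71 ± 0.21, adjusted p = 5.11e-06). KIF7 had 8.83, 7.89 and 12 CPM in OV-L1-FGGY DMSO, 12.4, 12.5 and 12.8 with ML355, 20.3, 19.5 and 19.3 in the NVR libraries and 23.8, 24.5 and 23.3 in OV-CTRL, and was lower in OV-L1-FGGY DMSO than in OV-CTRL (log2 fold change -1.31 ± 0.14, adjusted p = 4.05e-07). KIF21B, which limits microtubule growth, had 52.1, 53.2 and 55.3 CPM in OV-L1-FGGY DMSO, 89.2, 133 and 127 with ML355, 11.9, 14.5 and 10.4 in the NVR libraries and 12.2, 13.2 and 16.8 in OV-CTRL. ML355 libraries were the highest (log2 fold change 1.12 ± 0.16, adjusted p = 2e-05), and OV-CTRL and the NVR libraries overlapped below both (log2 fold change 1.93 ± 0.17, adjusted p = 2.53e-08 for OV-L1-FGGY DMSO against OV-CTRL). Its relative KIF21A followed the lines in the same sense (log2 fold change 1.36 ± 0.18, adjusted p = 2.93e-06) and did not pass with ML355 (log2 fold change 0.11 ± 0.17, adjusted p = 0.627).

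KIF12 had 0, 0 and 3 counts in OV-L1-FGGY DMSO and none with ML355, against 4.75, 3.44 and 5.82 CPM in the NVR libraries and 8.29, 7.23 and 6.6 in OV-CTRL. It was at least 29.2-fold higher in the NVR libraries and at least 46-fold higher in OV-CTRL than in OV-L1-FGGY DMSO. KIF9, a motor of motile cilia, and KIF25 were also lower in OV-L1-FGGY DMSO than in OV-CTRL (log2 fold change -1.13 ± 0.24, adjusted p = 0.000399 for KIF9, and log2 fold change -1.64 ± 0.49, adjusted p = 0.00643 for KIF25, at under 1 CPM). The KIF25 call was made in 10 of 19 other settings and lost without any 1 OV-L1-FGGY DMSO library, NVR replicate 1 or 2, or OV-CTRL replicate 1 or 2. Of KIF9's exon bases, 17.8% overlap genes on the other strand.

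At the foundation of the centromere, CENPA and CENPB went opposite ways in the NVR libraries. CENPA, the histone H3 variant that marks the site, had 26.8, 24 and 27.6 CPM in OV-L1-FGGY DMSO, 35.1, 27.2 and 41.1 with ML355, 26.9, 26 and 27.8 in the NVR libraries and 50.1, 45.4 and 41.9 in OV-CTRL. It was 1.7-fold lower in the NVR libraries than in OV-CTRL (log2 fold change -0.77 ± 0.14, adjusted p = 0.000336) but overlapped with OV-L1-FGGY DMSO (log2 fold change 0.04 ± 0.14, adjusted p = 0.795), which was itself lower than OV-CTRL (log2 fold change -0.81 ± 0.14, adjusted p = 5.24e-05). With ML355 the difference did not pass (log2 fold change 0.40 ± 0.14, adjusted p = 0.021). CENPB, which binds a sequence box in the alpha satellite repeats, had 104, 97.8 and 96.5 CPM in OV-L1-FGGY DMSO, 39.3, 33.6 and 47.5 with ML355, 578, 465 and 680 in the NVR libraries and 411, 369 and 315 in OV-CTRL. The 4 groups did not overlap. CENPB was 3.67-fold lower in OV-L1-FGGY DMSO than in OV-CTRL (log2 fold change -1.88 ± 0.16, adjusted p = 1.48e-08), a further 2.48-fold lower with ML355 (log2 fold change -1.31 ± 0.16, adjusted p = 3.19e-06), and 1.57-fold higher in the NVR libraries than in OV-CTRL (log2 fold change 0.65 ± 0.15, adjusted p = 0.00249). The last call was made in 17 of 20 other settings and lost without OV-CTRL replicate 2 or 3, and the ML355 call was made in all 20.

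In the constitutive centromere-associated network, 10 of 15 genes were lower in the NVR libraries than in OV-CTRL and none higher, with a median of -0.85. The 10 were spread over the inner modules: both of CENP-L/N, all 4 of CENP-H/I/K/M and all 4 of CENP-O/P/Q/U. None of the CENP-T/W/S/X module, whose subunits are histone-fold proteins, was called. CENPW lay at log2 fold change -0.56 ± 0.16, adjusted p = 0.0102 and was called in 8 of 20 other settings, and CENPX at log2 fold change -0.54 ± 0.20, adjusted p = 0.0366 was called in 3, and no difference between modules was tested. CENPC, the scaffold that links CENP-A to the outer kinetochore, was also outside the threshold (log2 fold change -0.57 ± 0.21, adjusted p = 0.0409).

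In CENP-H/I/K/M, CENPI had 37, 32 and 33.8 CPM in OV-L1-FGGY DMSO, 12.4, 10.7 and 11.1 with ML355, 5.2, 5.29 and 3.79 in the NVR libraries and 12.3, 13.1 and 17.6 in OV-CTRL. It was the CENP with the largest drop under ML355, 3-fold (log2 fold change -1.58 ± 0.16, adjusted p = 5.17e-07), and dropped by the same log2 fold change in the NVR libraries against OV-CTRL (log2 fold change -1.58 ± 0.17, adjusted p = 2.87e-06). CENPH, its partner in the module, had 46.3, 52.3 and 47.3 CPM in OV-L1-FGGY DMSO, 89.7, 78.2 and 83.9 with ML355, 29.4, 25.5 and 27.3 in the NVR libraries and 43.1, 36.3 and 36.2 in OV-CTRL. Unlike CENPI, CENPH rose with ML355 (log2 fold change 0.79 ± 0.11, adjusted p = 1.76e-05), and it was lower in the NVR libraries than in OV-CTRL (log2 fold change -0.49 ± 0.11, adjusted p = 0.00227). CENPK had 49.2, 51.1 and 50.4 CPM in OV-L1-FGGY DMSO, 53, 48.7 and 44.2 with ML355, 11.8, 11.5 and 7.9 in the NVR libraries and 34.7, 36.4 and 38.1 in OV-CTRL. It overlapped between OV-L1-FGGY DMSO and ML355 and had the largest drop of all CENPs in the NVR libraries against OV-CTRL, 3.49-fold (log2 fold change -1.80 ± 0.14, adjusted p = 1.03e-07). CENPM was lower in the NVR libraries than in OV-CTRL (log2 fold change -1.34 ± 0.21, adjusted p = 0.00012) and did not pass against OV-L1-FGGY DMSO (log2 fold change -0.59 ± 0.21, adjusted p = 0.0181).

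In CENP-O/P/Q/U, CENPU had 48.5, 46.9 and 47.9 CPM in OV-L1-FGGY DMSO, 54.2, 49.4 and 40 with ML355, 7.31, 8.18 and 8.89 in the NVR libraries and 24.9, 22.8 and 23.6 in OV-CTRL, with log2 fold change -1.55 ± 0.13, adjusted p = 2.55e-07 for the NVR libraries against OV-CTRL. CENPO had 17, 16.8 and 18.2 CPM in OV-L1-FGGY DMSO, 14.5, 19.1 and 14.7 with ML355, 10.1, 10.2 and 10.4 in the NVR libraries and 35.2, 35.2 and 34.3 in OV-CTRL, and was the network gene with the smallest adjusted p in that comparison (log2 fold change -1.77 ± 0.13, adjusted p = 4.98e-08). CENPQ had 38.2, 38.8 and 33.1 CPM in OV-L1-FGGY DMSO, 22.9, 27 and 25.5 with ML355, 3.55, 4.81 and 2.63 in the NVR libraries and 6.14, 6.3 and 7.75 in OV-CTRL. Unlike CENPO, which was lower in OV-L1-FGGY DMSO than in OV-CTRL (log2 fold change -1.01 ± 0.12, adjusted p = 1.41e-06), CENPQ was 5.45-fold higher there (log2 fold change 2.45 ± 0.17, adjusted p = 2.17e-09). With ML355, CENPQ was lower (log2 fold change -0.55 ± 0.16, adjusted p = 0.00847), a call made in 11 of 20 other settings, and CENPP was higher (log2 fold change 0.58 ± 0.15, adjusted p = 0.0038), a call made in 15 of 20 and lost without OV-L1-FGGY DMSO replicate 1 or 2 or ML355 replicate 3. CENPP had 4.93, 4.94 and 5.49 CPM in OV-L1-FGGY DMSO, 7.29, 7.78 and 7.99 with ML355, 5.9, 5.15 and 5.16 in the NVR libraries and 8.71, 9.46 and 9.01 in OV-CTRL, and was lower in the NVR libraries than in OV-CTRL (log2 fold change -0.75 ± 0.15, adjusted p = 0.000812). Exon bases shared with genes on the other strand make up 39.9% of CENPP, 31.6% of CENPO and 14.9% of CENPU. Whether reads were counted by strand was not given, and the number of reads from those bases was not measured.

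The CENP-L/N pair, which contacts CENP-A nucleosomes, was higher in OV-L1-FGGY DMSO than in OV-CTRL and lowest in the NVR libraries. CENPL had 29.8, 31.1 and 30.7 CPM in OV-L1-FGGY DMSO, 39.6, 39.9 and 36.8 with ML355, 4.7, 4.7 and 4.39 in the NVR libraries and 10, 11.7 and 13.2 in OV-CTRL (log2 fold change 1.39 ± 0.12, adjusted p = 2.58e-08 between the lines and log2 fold change -1.34 ± 0.13, adjusted p = 1.21e-06 in the NVR libraries against OV-CTRL). CENPN had 89.4, 77.4 and 74.3 CPM in OV-L1-FGGY DMSO, 83.4, 80.3 and 69.6 with ML355, 15.2, 15.7 and 18.9 in the NVR libraries and 32.1, 30.8 and 37 in OV-CTRL (log2 fold change 1.27 ± 0.12, adjusted p = 1.1e-07 and log2 fold change -1.01 ± 0.13, adjusted p = 1.6e-05), with 23.1% of its exon bases shared with other genes. Neither passed with ML355.

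In the histone-fold module, CENPX, also a partner of FANCM in DNA repair, had 41.3, 49 and 41 CPM in OV-L1-FGGY DMSO, 46.4, 32 and 50.3 with ML355, 161, 114 and 204 in the NVR libraries and 279, 225 and 192 in OV-CTRL. It was 5.3-fold lower in OV-L1-FGGY DMSO than in OV-CTRL (log2 fold change -2.41 ± 0.21, adjusted p = 2.63e-08), and OV-CTRL overlapped with the NVR libraries. CENPT, the subunit that recruits the outer kinetochore, was also lower in OV-L1-FGGY DMSO (log2 fold change -0.76 ± 0.14, adjusted p = 0.000158), at 35 ± 1.89 CPM against 59.4 ± 8.46 in OV-CTRL. CENPS stayed between 0.778 and 2.31 CPM, was called in no comparison, and shares 65.0% of its exon bases with the readthrough gene CENPS-CORT and an antisense gene.

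At the outer kinetochore, CENPE, a kinesin-7 that carries chromosomes to the spindle equator, had 40.2, 31.1 and 41 CPM in OV-L1-FGGY DMSO, 54, 47.4 and 39.2 with ML355, 12.5, 15.5 and 12.3 in the NVR libraries and 20.1, 26.3 and 27.5 in OV-CTRL. CENPF, a large protein of the fibrous corona, had 216, 173 and 224 CPM in OV-L1-FGGY DMSO, 159, 146 and 136 with ML355, 61.9, 72.7 and 57.4 in the NVR libraries and 120, 141 and 159 in OV-CTRL. Both were lower in the NVR libraries than in OV-CTRL (log2 fold change -0.87 ± 0.16, adjusted p = 0.000524 for CENPE, log2 fold change -1.13 ± 0.14, adjusted p = 9.17e-06 for CENPF) and higher in OV-L1-FGGY DMSO than in OV-CTRL (log2 fold change 0.60 ± 0.16, adjusted p = 0.00257 and log2 fold change 0.54 ± 0.13, adjusted p = 0.00153). With ML355, CENPF was lower (log2 fold change -0.47 ± 0.13, adjusted p = 0.0064, called in 15 of 20 other settings) and CENPE did not pass (log2 fold change 0.32 ± 0.16, adjusted p = 0.0904).

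CENPJ, a centriole elongation factor, had 29.2, 27.4 and 31.5 CPM in OV-L1-FGGY DMSO, 38.2, 31.6 and 29.5 with ML355, 10, 8.74 and 7.02 in the NVR libraries and 17.6, 17.8 and 19.9 in OV-CTRL, and was lower in the NVR libraries than in OV-CTRL (log2 fold change -1.10 ± 0.15, adjusted p = 2.48e-05). CENPV, which acts on microtubules and heterochromatin, had 40.4, 40.3 and 39.4 CPM in OV-L1-FGGY DMSO, 65.4, 62.8 and 74.2 with ML355, 63.3, 60.3 and 91 in the NVR libraries and 96, 78.6 and 63.6 in OV-CTRL. It was higher with ML355 (log2 fold change 0.75 ± 0.16, adjusted p = 0.000926) and lower in OV-L1-FGGY DMSO than in OV-CTRL (log2 fold change -0.99 ± 0.16, adjusted p = 4.01e-05), and overlapped between the NVR libraries and OV-CTRL.

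Against OV-L1-FGGY DMSO, the NVR libraries had 32 members lower and 16 higher, as given above. The log2 fold changes of the mitotic kinesins not yet given on this baseline were -1.36 for KIF2C, -1.84 for KIF15, -2.39 for KIF18A, -1.56 for KIF20A, -2.15 for KIF20B, -0.79 for KIF22 and -0.91 for KIF4A, all called lower. Of the network, CENPQ (log2 fold change -3.30 ± 0.19, adjusted p = 9.89e-11), CENPL (log2 fold change -2.73 ± 0.13, adjusted p = 1.7e-11), CENPU (log2 fold change -2.56 ± 0.13, adjusted p = 3.75e-11) and CENPI (log2 fold change -2.84 ± 0.17, adjusted p = 2.34e-10) were the lowest. CENPK (-2.27), CENPN (-2.28), CENPH (-0.83), CENPO (-0.76), CENPC (-1.91) and CENPW (-0.79) were also lower, as were CENPE (-1.48), CENPF (-1.67) and CENPJ (-1.77). CENPB (2.53), CENPX (1.87), CENPT (0.84) and CENPV (0.84) were higher, and CENPP (0.07) was not called. Of the other kinesins, KIF2A (-1.78), KIF21A (-1.77), KIF21B (-2.12) and KIF24 (-1.78) were lower, and KIF7 (1.04), KIF9 (1.23), KIF25 (1.93) and KIF27 (1.66) higher. Of the transport kinesins, KIF13A (-1.37), KIF1B (-0.83) and KIF3B (-0.54) were lower beside KIF5B, and KIF1C (1.08), KIF3A (1.02), KIF3C (1.73), KIF13B (1.03) and KIF17 (1.12) higher. The KIF17 call was made in 9 of 19 other settings and lost without any 1 OV-L1-FGGY DMSO or OV-CTRL library or NVR replicate 1 or 2. KIF16B was not called (-0.32).

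The 2 comparisons without shared libraries, ML355 against OV-L1-FGGY DMSO and the NVR libraries against OV-CTRL, were set against each other in 1 test of the difference of their log2 fold changes. For 28 members the change was lower in the NVR comparison and for 3 it was higher, where 17.3% and 16.8% of all genes tested passed in these directions. All 11 mitotic kinesins were among the 28, from -0.86 (KIF11) to -2.34 (KIF15) on the log2 scale. The 3 on the other side were CENPB (1.96 ± 0.22, adjusted p = 2.65e-06), KIF1C (0.95 ± 0.17, adjusted p = 0.000223) and KIF3B (0.77 ± 0.20, adjusted p = 0.00419, called in 13 of 19 other settings). For CENPI the difference was 0.00 ± 0.28 (SE, adjusted p = 1). The agent and the cell line differ together between these comparisons and cannot be told apart.

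**Figure D5:**
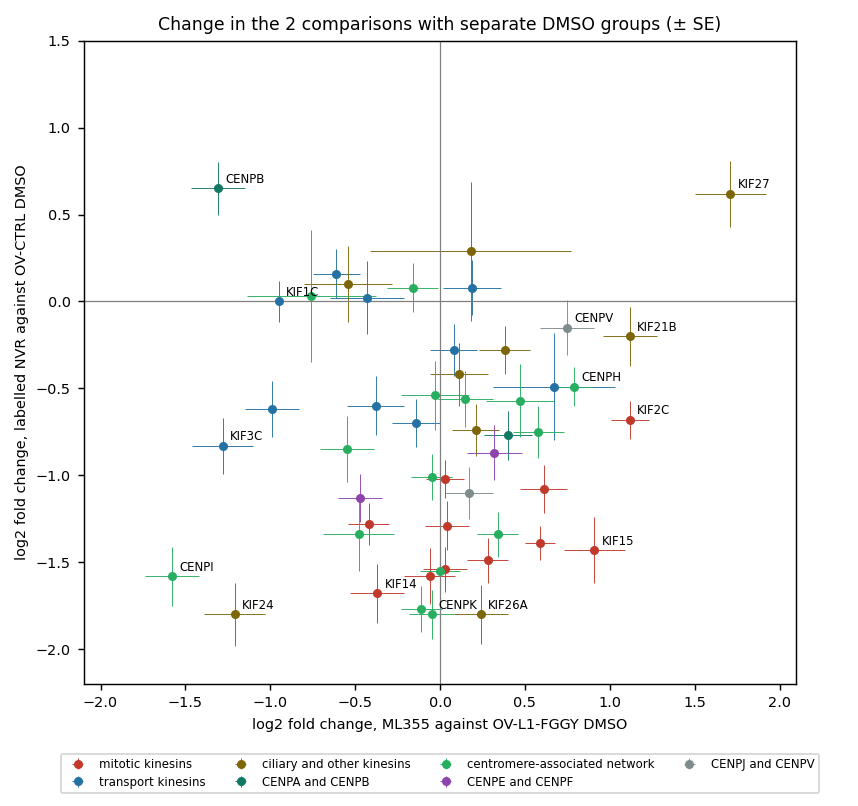
Each point is 1 of 51 tested members (KIF1A, KIF5C and KIF12 are left out), with its log2 fold change under ML355 against OV-L1-FGGY DMSO on the horizontal axis, that of the NVR libraries against OV-CTRL DMSO on the vertical axis, and standard errors as bars. The mitotic kinesins lie between -0.68 and -1.68 on the vertical axis and between -0.42 and 1.12 on the horizontal one, and CENPB lies farthest to the upper left.

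Levels were also taken per kilobase of exon, with the exons of all annotated transcripts of a gene joined. This length can exceed that of the mRNA expressed, by different degrees between genes, so the ranks below are approximate. KIF2C had the highest value of the kinesins in OV-L1-FGGY DMSO (29.2 ± 1.52 CPM per kb, SD, n = 3), ahead of KIF5B (27.1 ± 2.11), within their spread of each other. With ML355, KIF2C stood at 63.4 ± 5.39 CPM per kb, above KIF20A (33.6 ± 2.17). In OV-CTRL and in the NVR libraries KIF1C came first (39.5 ± 2.09 and 39.5 ± 6.21 CPM per kb), followed by KIF18B in OV-CTRL (29.3 ± 2.32) and by KIF5B in the NVR libraries (14.1 ± 1.96). Of the CENPs, CENPB and CENPW led in OV-L1-FGGY DMSO (34.4 ± 1.35 and 32.5 ± 2.38 CPM per kb, within their spread of each other). CENPX and CENPB led in OV-CTRL (152 ± 28.8 and 126 ± 16.7), also within their spread, while in the NVR libraries CENPB (199 ± 37.3) stood above CENPX (104 ± 29.2).

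Genes that work with the members were read from 7 further lists. In the NVR libraries against OV-CTRL, where 15.3% of all genes tested were lower and 14.5% higher, 11 of 13 genes of the KMN network and SKA complex (the microtubule-binding outer kinetochore) were lower and none higher, among them DSN1 (log2 fold change -1.71 ± 0.12, adjusted p = 5.1e-08) and ZWINT (-1.63 ± 0.14, adjusted p = 2.61e-07). All 5 genes of CENP-A loading were lower, led by HJURP, the CENP-A chaperone, at 34.5 CPM against 136 (-1.98 ± 0.11, adjusted p = 5.55e-09). The passenger complex and checkpoint had 12 lower and 1 higher of 14, and all 9 partners of mitotic kinesins were lower, RACGAP1 (-1.54 ± 0.10) and TPX2 (-1.64 ± 0.11) among them. Of the regulators of mitotic genes, 13 of 19 were lower, with E2F2 at -3.36 ± 0.19 and E2F1 at -2.42 ± 0.15, and 1, the p21 gene CDKN1A, was higher at 514 CPM against 184 (1.48 ± 0.11, adjusted p = 5.3e-08). The light chains, adaptors and other kinesins of transport, together called the adaptors below, were divided (3 lower and 1 higher of 13). So were dynein with dynactin (4 lower and 4 higher of 15). The medians were -1.15 for the KMN network and SKA complex, -1.16 for CENP-A loading, -0.00 for the adaptors and 0.12 for dynein and dynactin.

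With ML355, where 23.5% of all genes tested were lower and 21.3% higher, 8 of 14 genes of the passenger complex and checkpoint were higher and none lower, among them AURKB (1.39 ± 0.15, adjusted p = 1.32e-06) and CDCA8 (1.15 ± 0.10, adjusted p = 7.54e-08), subunits of the complex that KIF20A carries. Of the partners of mitotic kinesins 4 of 9 were higher and none lower, led by the minus-end kinesin KIFC1 (1.47 ± 0.10, adjusted p = 8.3e-09). The KMN network and SKA complex went both ways (4 lower and 2 higher of 13), with NDC80 at 1.21 ± 0.11 and its complex partner SPC25 at -1.22 ± 0.14. CENP-A loading had HJURP higher (1.54 ± 0.11) and OIP5 lower (-1.04 ± 0.21). The adaptors had 4 lower and 2 higher of 13, among them KIFAP3, the non-motor subunit beside KIF3A and KIF3B, at -0.61 ± 0.12 (adjusted p = 0.000529). Dynein and dynactin had 3 higher and none lower of 15. Of the regulators 7 were lower and 4 higher, with E2F3 at -1.41 ± 0.11 and CDKN1A at 1.64 ± 0.11.

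Between the lines, the KMN network and SKA complex had 8 higher and none lower in OV-L1-FGGY DMSO against OV-CTRL, HJURP was lower (-2.99 ± 0.12, adjusted p = 1.52e-12), and the adaptor MAPK8IP1 was lower (-3.86 ± 0.18, adjusted p = 1.19e-11) along with KIF5C and KIF1A. The NVR libraries against OV-L1-FGGY DMSO had 12 of 13 genes of the KMN network and SKA complex lower, with NDC80 at -2.85 ± 0.12, and 6 lower and 6 higher of 13 adaptors. Of all genes tested, 35.4% were lower and 38.2% higher in the NVR libraries against OV-L1-FGGY DMSO, and 36.2% and 32.5% between the lines. In these 2 comparisons the passenger complex and checkpoint had 10 lower and 2 higher of 14 (NVR libraries against OV-L1-FGGY DMSO) and 2 lower and 6 higher (between the lines). The partners had 7 lower and none higher, and 3 lower and 3 higher, of 9. CENP-A loading had 4 lower and 1 higher, and 2 lower and 2 higher, of 5. Dynein and dynactin had 6 lower and 6 higher, and 7 lower and 4 higher, of 15, which is 40% and 40%, and 46.7% and 26.7%. The regulators had 13 lower and 3 higher, and 5 lower and 10 higher, of 19. The adaptors had 7 lower and 6 higher between the lines.

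The promoter letters shown above were set against the calls as a description. Of the 28 members with a window that were lower in the NVR libraries against OV-CTRL, 15 held a CHR match (53.6%), against 2 of 17 that were not called (11.8%) and neither of the 2 that were higher. The 15 were the 9 mitotic kinesins printed above, CENPA, CENPF, CENPN, CENPO, KIF24 and KIF5B. The 2 with a match that were not called were CENPC and CENPW. KIF2C and KIF20A, the tested mitotic kinesins without a match, were lower as well. As all 11 tested mitotic kinesins were lower, this comparison overlaps the split by role.

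Within groups, the members' deviations from the group mean went with exon length to a varying degree. Over 54 members, Spearman's rho ran from -0.71 in OV-CTRL replicate 1 to 0.615 in OV-CTRL replicate 3, with -0.19, 0.419 and -0.328 in the 3 NVR libraries, a description in which all points of a value share a library. The part of this in the comparisons was not tested. The 11 mitotic kinesins were called lower in the NVR libraries against OV-CTRL with any 1 of these libraries left out. Leaving out 1 library does not remove a length effect spread over several libraries.

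Some calls on other members were also lost with 1 library left out. Against OV-CTRL, the NVR call was lost for CENPH without OV-CTRL replicate 1 and for CENPQ without NVR replicate 1 or OV-CTRL replicate 3. Against OV-L1-FGGY DMSO it was lost for KIF3B without OV-L1-FGGY DMSO replicate 3 and for KIF25 without that library or NVR replicate 3. Between the lines, KIF20A and CENPE lost the call without OV-L1-FGGY DMSO replicate 1 or 3 or OV-CTRL replicate 1, KIF1B without replicate 1 of either group, CENPM without OV-L1-FGGY DMSO replicate 2 or 3 or OV-CTRL replicate 1, and CENPF without OV-L1-FGGY DMSO replicate 3. CENPK, higher in OV-L1-FGGY DMSO (0.47 ± 0.13), kept that call in 13 of 20 other settings and lost it without any 1 OV-L1-FGGY DMSO library or OV-CTRL replicate 1 or 2. With ML355, CENPF lost its call without OV-L1-FGGY DMSO replicate 1 or 3 or ML355 replicate 2 or 3, and CENPQ without any 1 library of either group, NVR replicate 1 or OV-CTRL replicate 2.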

How the data were processed

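RNA sequencing of NCI-H520 cells gave 12 libraries in 4 groups of 3, grouped by the labels. The count columns of the OV-L1-FGGY DMSO and ML355 groups carried the sample titles. The columns named only NVR and a number were matched to the samples titled with NVR and that number. The columns named only DMSO and a number were taken as OV-CTRL, as the remaining DMSO samples. The results for the NVR libraries and OV-CTRL rest on this matching. The submitters' processing notes name STAR 2.5.3a, HTSeq 0.11.2 and the hg38 build. The authors deposited raw read counts per Ensembl gene. The library kit differs between the labels and the methods. The annotation release, the strand setting and the treatment of multimapping reads were not given in the sources used here. Of 58302 rows, 57532 matched GENCODE 44, from which symbols and exon lengths were taken.

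Counts were TMM-scaled, filtered with filterByExpr (17849 genes kept) and tested with edgeR's quasi-likelihood test over all 4 groups (R 4.3.3, edgeR 4.0.16), with Benjamini-Hochberg adjustment over all genes tested and a threshold of 0.01. Limma 3.58.1 (voom) and DESeq2 1.42.0 were alternatives, beside other scalings, filters and thresholds, fitting only the groups compared, a replicate block and leaving out each library. Levels are CPM, or CPM per kb of exon, with the exons of all annotated transcripts of a gene joined. A value of 3 counts per library was the floor for genes at 0, which was 0.111 to 0.172 CPM and covers counting error only. On simulated counts for ML355 against OV-L1-FGGY DMSO (16959 genes, 200 changed by a log2 fold of 1), edgeR recovered 172 (86%) with 1 false call. The simulation gave all genes the same spread (a coefficient of variation of 0.143) and changed only genes with a mean above 1 CPM. In the real comparison 23.5% of genes were called lower and 21.3% higher. The simulation therefore checks the code and does not measure recovery or false calls in these data.

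The members and lists were chosen with earlier results of these data known. Members given with the value in every library were, per comparison and role, up to 4 called members with the smallest adjusted p, non-overlapping groups and a mean level of 1 CPM or more, and CENPA, CENPE, CENPF, KIF11, KIF23 and KIF5B in any case. Of each further list, up to 3 called genes with the smallest adjusted p per comparison could be named. A further set of cell type markers is not reported here.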

Additional observations from a re-analysis of the deposited data

Results flagged for a closer look

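The change in the NVR-labelled libraries against OV-CTRL DMSO and the change with ML355 against OV-L1-FGGY DMSO differed for 31 members, by an edgeR test of the difference of the log2 fold changes at an adjusted p under 0.01. The values below are the first change minus the second, on the log2 scale.

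Among the mitotic kinesins they were KIF11 (-0.86), KIF14 (-1.31), KIF15 (-2.34), KIF18A (-1.78), KIF18B (-1.52), KIF20A (-1.69), KIF20B (-1.33), KIF22 (-1.98), KIF23 (-1.57), KIF2C (-1.8) and KIF4A (-1.06). Among the transport kinesins they were KIF1C (0.95) and KIF3B (0.77), and among the other kinesins KIF21B (-1.32), KIF26A (-2.04), KIF27 (-1.09) and KIF2A (-0.95).

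In the centromere-associated network they were CENPC (-1.04), CENPH (-1.28), CENPK (-1.75), CENPL (-1.68), CENPN (-0.96), CENPO (-1.66), CENPP (-1.33) and CENPU (-1.55). At the centromere's foundation they were CENPA (-1.17) and CENPB (1.96), at the outer kinetochore CENPE (-1.2) and CENPF (-0.66), and for the CENPs that act mainly elsewhere CENPJ (-1.27) and CENPV (-0.9). Calls for 5 members were not made in all 19 other settings: CENPF in 5, CENPC in 6, KIF27 in 10, and CENPV and KIF3B in 13 each, mostly lost with 1 library left out. KIF3B lost the call without replicate 1 or 3 of either OV-L1-FGGY group or OV-CTRL replicate 2, and CENPV without any 1 OV-L1-FGGY DMSO library, ML355 replicate 3, NVR replicate 1 or OV-CTRL replicate 1. KIF27 lost it without any 1 OV-L1-FGGY DMSO or OV-CTRL library, ML355 replicate 1 or NVR replicate 2. CENPC and CENPF lost it without any 1 OV-L1-FGGY DMSO library, ML355 replicate 1 or 2, NVR replicate 1 or 3, or OV-CTRL replicate 2 or 3, and CENPF also without ML355 replicate 3.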

How the results depend on the processing

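The 11 mitotic kinesins called lower in the NVR-labelled libraries against OV-CTRL were called under all 20 alternatives, and so were the 4 transport kinesins called lower with ML355. Calls of at least 1 log2 unit in size were made for 4 members lower and 3 higher with ML355. The NVR libraries had 21 such members lower and 1 higher against OV-CTRL, and 24 lower and 14 higher against OV-L1-FGGY DMSO. OV-L1-FGGY DMSO against OV-CTRL had 15 lower and 10 higher, and the test of the difference of changes 23 lower and 1 higher. The shares of all genes at this size were not counted. The 2 members higher in the NVR libraries against OV-CTRL became 1 with library size alone, 4 with DESeq2, 1 when fitting only the groups compared, 4 at an adjusted p under 0.05 and 1 with the replicate block. Leaving out 1 library gave 7 to 10 lower and 8 to 10 higher with ML355, 29 to 33 lower and 0 to 3 higher in the NVR libraries against OV-CTRL (0 higher without OV-CTRL replicate 2 or 3, and 1 without NVR replicate 1 or 3 or OV-CTRL replicate 1), 31 to 33 lower and 14 to 17 higher against OV-L1-FGGY DMSO, 21 to 23 lower and 18 to 23 higher between the lines, and 24 to 29 lower and 2 to 3 higher in the difference of changes. KIF23 with ML355 (0.03) turned to -0.09 with library size alone, and with 1 library left out it ranged from -0.06 (without ML355 replicate 2; -0.05 without OV-L1-FGGY DMSO replicate 2) to 0.11. CENPA in the NVR libraries against OV-L1-FGGY DMSO (0.04) turned to -0.20 with library size alone and ranged from -0.02 (without OV-L1-FGGY DMSO replicate 2) to 0.07 with 1 library left out. Neither was called, and the cause was not tested. The deviations of same-numbered libraries had correlations from -0.354 (replicate 3 of the NVR libraries and OV-CTRL) to 0.17, and the main fit did not pair them. NVR replicate 2 was closest to OV-CTRL replicate 3, and NVR replicate 3 to OV-CTRL replicate 1. With 3 libraries per group, these correlations cannot exclude that same-numbered libraries share an origin. The block by replicate number gave 7 lower and 9 higher with ML355 and 32 lower in the NVR libraries against OV-CTRL. Over 93 values of named members, 1890 of the recomputed values kept direction and call, 49 lost the call, 2 gained it and 5 changed sign. Depth limits what can be said of KIF1A, KIF5C, KIF12, KIF5A and CENPS.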
